A study of Bos taurus with 10 samples.

Results

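Expression of 9 genes of the inflammatory response was compared in 2 joint tissues of cattle. They were the cytokine genes IL1A (ENSBTAG00000010349), IL1B (ENSBTAG00000001321), TNF (ENSBTAG00000025471) and IL6 (ENSBTAG00000014921), the chemokine genes CXCL8 (ENSBTAG00000019716), CCL2 (ENSBTAG00000025250) and CCL20 (ENSBTAG00000021326), and the enzyme genes PTGS2 (ENSBTAG00000014127) and NOS2 (ENSBTAG00000006894). The genes were taken by identifier, and all 9 were found among the 23819 genes of the count files. The files give Ensembl identifiers without names, so the symbols are those assigned to these identifiers when the genes were chosen. As a check of the symbols, the rows of the 9 genes stood in the files in the order that the RefSeq genes of these names have along the bovine genome (assembly ARS-UCD2.0), for 9 of 9 genes. Such an order is a description and does not prove a name.

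RNA was sequenced from 5 specimens of articular cartilage, the layer that covers bone ends, and 5 of acetabular labrum, the rim of fibrocartilage around the hip socket. Specimens came from male animals with no macroscopic disease. Each was held for 2 days in a basal medium with antibiotics, insulin, transferrin and selenium before RNA extraction. The labels name no inflammatory stimulus, no loading and no other treatment, and both tissues shared the culture. The values therefore describe tissue after culture, and freshly excised tissue was not analysed here. The labels number the specimens 1 to 5 in each tissue without stating that each is another animal, so p-values here rest on the spread between specimens, part of which may be technical. The total count per library was 7910479 to 27043808 in cartilage and 3958167 to 19179862 in labrum. The labelled tissues could not be checked against marker genes, because the remaining identifiers were not paired with names. In bulk tissue, fewer cells of a type and less RNA per cell cannot be told apart.

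These genes belong to one of the best-known response systems of joint tissue. Interleukin 1 (alpha and beta, which use the same receptor) and tumour necrosis factor act on chondrocytes and fibroblasts through the transcription factor NF-kB. They are known to induce the cytokine IL6, chemokines that attract leukocytes, and the enzymes PTGS2 and NOS2. PTGS2, also called cyclooxygenase-2, makes the precursor of prostaglandins. NOS2, the inducible nitric oxide synthase, makes nitric oxide, which chondrocytes are known to release when stimulated. In cartilage these signals are studied mainly for their part in matrix breakdown.

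The 9 genes fell into opposite patterns. PTGS2 and NOS2 were lower in labrum than in cartilage, by 15.9-fold and 3.63-fold. CCL2 was higher in labrum, where it had 200 counts, against 1 count in all cartilage libraries together. IL6, CXCL8, TNF, IL1B and IL1A were seen almost only in labrum, at levels too low for the main test. CCL20 was found in both tissues, and its difference did not pass the test. Levels are given in CPM (counts relative to library size, with sizes scaled by the trimmed mean of M-values, TMM), which are not corrected for gene length, so they are compared between libraries and not between genes.

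**Figure D1:**
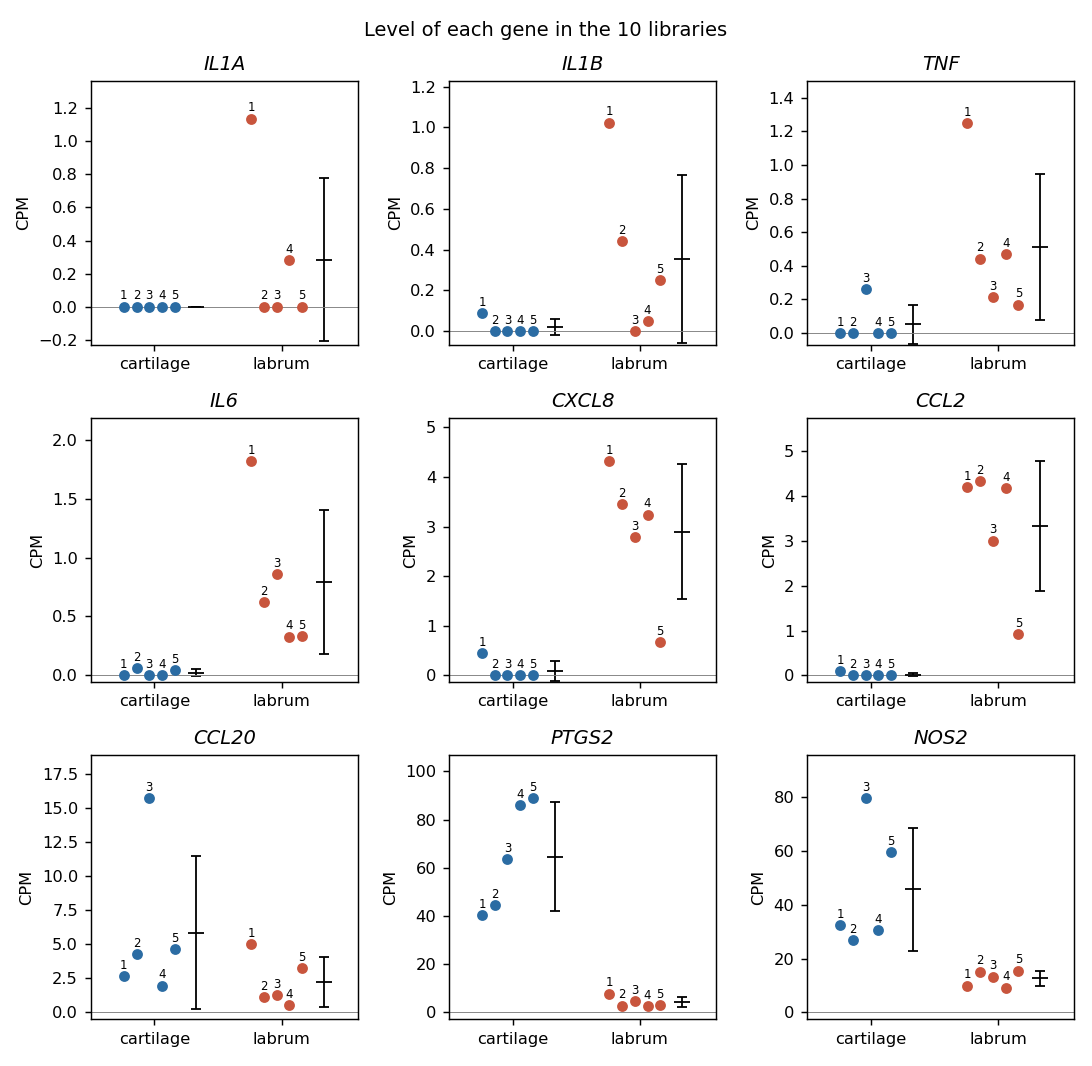
Level of each of the 9 genes in CPM (linear axis, its own scale in each panel) in the 5 cartilage libraries (blue) and the 5 labrum libraries (red); digits are replicate numbers, and bars show mean ± SD. PTGS2 and NOS2 are high in all cartilage libraries, while the measured values of IL6, CXCL8 and CCL2 are above every cartilage library in all 5 labrum libraries, for IL6 from as few as 4 counts.

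Of the 9 genes, 4 passed the filter on low counts and entered the test across 12333 genes (edgeR quasi-likelihood test, Benjamini-Hochberg adjustment over all of them, threshold 0.05). Of these, 1 was higher in labrum and 2 were lower. Across all tested genes, 31.4% were higher and 31.3% were lower, so a call in either direction was common. The filter asked for about 0.921 CPM in 5 libraries, on library totals before TMM scaling. CCL2 reached this only through the labrum, where replicate 5 was lowest with 0.963 CPM on that scale. A gene that passes in this way had to differ, so the number of calls among the 4 says nothing about the group. The other 5 genes (IL1A, IL1B, TNF, IL6 and CXCL8) are described by their counts, and by a fit without the filter in which 17287 genes were tested.

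PTGS2 was higher in cartilage, with 4176 counts over its 5 libraries against 218 in labrum. In cartilage replicates 1 to 5 it was measured at 40.5, 44.5, 63.5, 86.0 and 88.9 CPM. In labrum replicates 1 to 5 it was measured at 7.84, 2.83, 4.72, 2.68 and 3.18 CPM. Every labrum library lay below every cartilage library, and replicate 1 was the highest of the labrum. The means were 64.7 ± 22.6 CPM in cartilage and 4.25 ± 2.17 CPM in labrum (SD, n = 5 each). The log2 fold change, labrum over cartilage, was -3.99 (SE 0.35, 95% confidence interval -4.75 to -3.23, edgeR adjusted p = 1.66e-06). Only 165 of the 12333 tested genes had a lower fold change.

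NOS2 was also higher in cartilage, with a smaller difference. Its levels in cartilage replicates 1 to 5 were 32.3, 26.8, 79.5, 30.5 and 59.4 CPM. In labrum replicates 1 to 5 they were 10, 15.1, 13.3, 9.21 and 15.5 CPM. The groups did not overlap, and the cartilage libraries were spread more widely than those of labrum. The means were 45.7 ± 22.9 CPM in cartilage and 12.6 ± 2.9 CPM in labrum (SD, n = 5 each), and the log2 fold change was -1.86 (SE 0.31, 95% confidence interval -2.54 to -1.17, edgeR adjusted p = 0.000276). A lower fold change than that of NOS2 was found in 835 tested genes.

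The proportion of the 2 enzymes' counts within a library also differed between the tissues, a measure that no scaling of libraries can move. The count of PTGS2 divided by that of NOS2 was 1.26, 1.66, 0.799, 2.82 and 1.5 in cartilage replicates 1 to 5. The same quotient was 0.784, 0.187, 0.355, 0.291 and 0.205 in labrum replicates 1 to 5. NOS2 had more counts than PTGS2 in all 5 labrum libraries and in cartilage replicate 3. The measured quotients of the groups did not overlap, but the lowest in cartilage (0.799) and the highest in labrum (0.784) were close. The latter came from 69 PTGS2 and 88 NOS2 counts, and no interval was computed for these quotients. The confidence intervals of the 2 fold changes given above did not overlap either, and no separate test of their difference was made. Cartilage replicate 3, highest of all libraries in NOS2, had the lowest quotient in cartilage, and labrum replicate 1, highest of the labrum in PTGS2, had the highest in labrum.

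**Figure D2:**
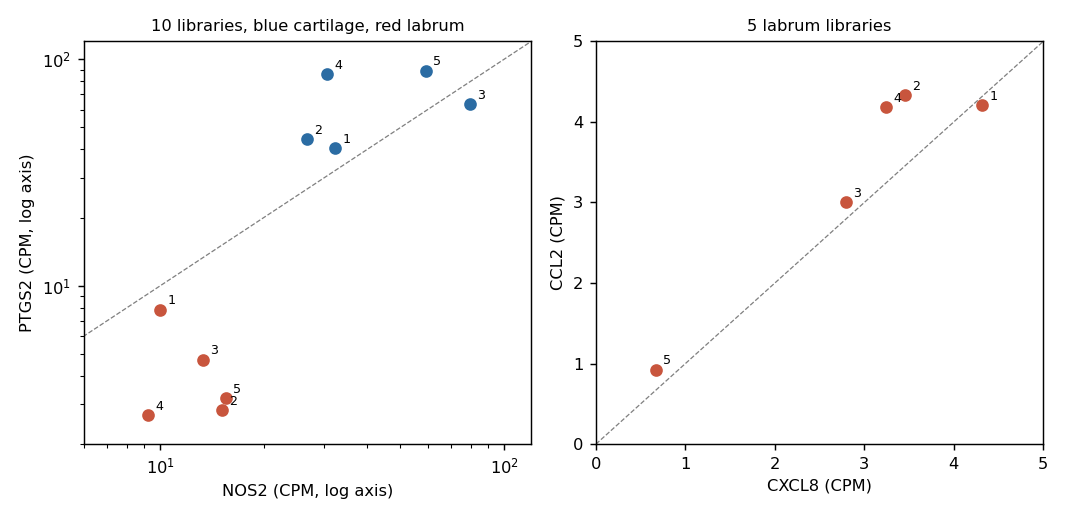
Left, PTGS2 against NOS2 in CPM on log axes for the 5 cartilage (blue) and 5 labrum (red) libraries; right, CCL2 against CXCL8 in CPM on linear axes for the 5 labrum libraries, with replicate numbers. Dashed lines mark equal counts of both genes, without correction for gene length; the quotient of PTGS2 to NOS2 is 0.799 to 2.82 in cartilage and 0.187 to 0.784 in labrum.

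Among the chemokines, CCL2, which attracts monocytes, had nearly all of its counts in labrum. In labrum replicates 1 to 5 it had 37, 49, 14, 89 and 11 counts, or 4.21, 4.33, 3.01, 4.18 and 0.922 CPM. In cartilage, replicate 1 had 1 count and the other 4 libraries had 0. Labrum replicate 5 was the lowest of its group and was still above all cartilage libraries. The mean in labrum was 3.33 ± 1.45 CPM (SD, n = 5). At that level, measured on pooled counts, cartilage would have given 219 counts, since its libraries were the deeper in sum.

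The ratio of pooled CCL2 counts over scaled library sizes, labrum over cartilage, was 219, with an exact 95% binomial interval of 38.8 to 8688. This interval, like the others of its kind below, covers counting error only. In the test across all genes CCL2 had a log2 fold change of 7.0 (SE 0.75, edgeR adjusted p = 6.33e-06). That value depends on the prior count of the fit because cartilage was near 0. CCL2 entered this test only through its labrum counts, so this p-value is not separate support for a difference. In the fit without the filter the log2 fold change was 6.99 (SE 0.75, edgeR adjusted p = 2.73e-06). With the filter, 203 of 12333 genes had a higher fold change, a rank with the same limit. Without cartilage replicate 1 no cartilage count was left, and with a floor of 3 counts over the group CCL2 was at least 59.9-fold higher in labrum. Such a bound, here and below, takes the labrum counts without error, so it is not the lower end of a 95% interval. Without cartilage replicate 5, the deepest library, the ratio was 143. Without labrum replicate 4 CCL2 fell under the filter and was not tested.

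CXCL8, known as interleukin 8, attracts neutrophils. Its counts in labrum replicates 1 to 5 were 38, 39, 13, 69 and 8, or 4.32, 3.45, 2.79, 3.24 and 0.67 CPM. In cartilage, replicate 1 had 5 counts (0.443 CPM) and the other 4 libraries had 0. No cartilage library reached the lowest labrum library, but labrum replicate 5 and cartilage replicate 1 were close. The ratio of pooled counts was 36.6 (95% binomial interval 15.4 to 114). It was 23.9 without cartilage replicate 5, and at least 50.08 without cartilage replicate 1.

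CXCL8 missed the filter by labrum replicate 5 alone, which was under the level asked for. In the fit without the filter it was higher in labrum, with a log2 fold change of 4.95 (SE 0.87, edgeR adjusted p = 0.000312). Under the alternatives to that fit the adjusted p was 1.34e-07 to 0.00117.

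CCL2 and CXCL8 kept nearly the same proportion in the labrum. The count of CCL2 divided by that of CXCL8 was 0.974, 1.26, 1.08, 1.29 and 1.38 in replicates 1 to 5. For labrum replicate 5, which had few counts, the 95% binomial interval of this quotient was 0.504 to 3.94, and for replicate 4, the deepest, it was 0.931 to 1.79. Both chemokines were lowest in labrum replicate 5. With 5 libraries no correlation was computed for this pair.

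CCL20, the ligand of the receptor CCR6 on lymphocytes and dendritic cells, did not follow the other chemokines. Its levels in cartilage replicates 1 to 5 were 2.66, 4.29, 15.7, 1.97 and 4.68 CPM. In labrum replicates 1 to 5 they were 5.0, 1.15, 1.29, 0.517 and 3.27 CPM. The groups overlapped, and 2 libraries stood above the others of their tissue, cartilage replicate 3 with 121 counts and labrum replicate 1 with 44. The means were 5.87 ± 5.63 CPM in cartilage and 2.24 ± 1.85 CPM in labrum (SD, n = 5 each).

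The log2 fold change of CCL20 was -1.39 (SE 0.67, 95% confidence interval -2.86 to 0.09, edgeR adjusted p = 0.0932), so the difference did not exceed the spread between libraries by this test. The value rested on single libraries. Without cartilage replicate 3 it was -0.65 (edgeR adjusted p = 0.333), and the cartilage mean was 3.4 CPM. Without labrum replicate 1 it was -1.91 and passed the test (edgeR adjusted p = 0.0373), as it did with limma-voom (-1.58, limma-voom adjusted p = 0.0442). Over all alternatives with the filter the adjusted p was 0.0373 to 0.333.

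**Figure D3:**
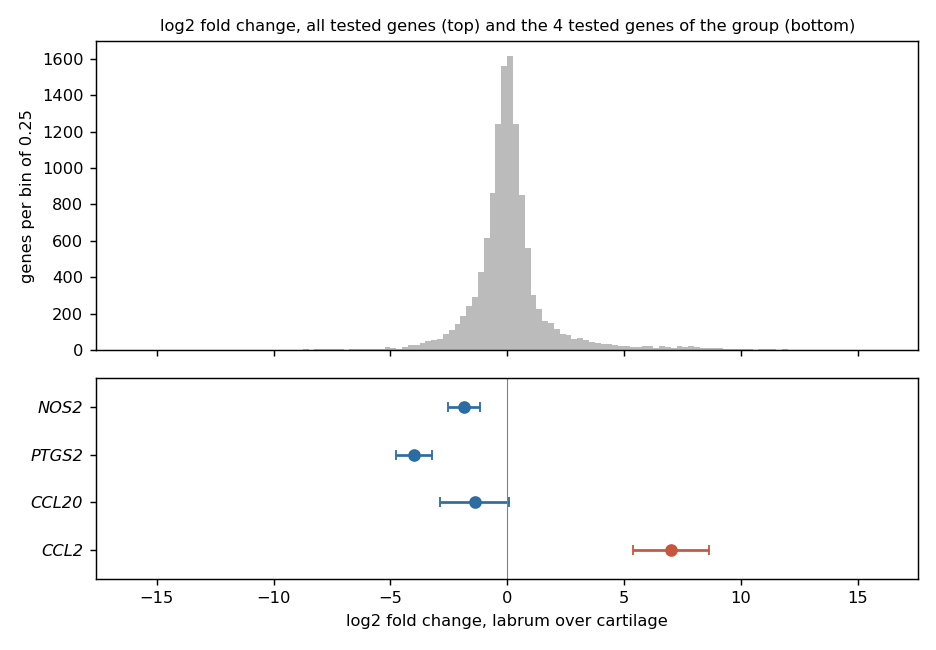
Top, number of genes per bin of log2 fold change (labrum over cartilage) for all 12333 tested genes; bottom, the 4 tested genes of the group with 95% confidence intervals from edgeR. CCL2 is at 7.0, PTGS2 at -3.99 and NOS2 at -1.86, and the interval of CCL20 (-2.86 to 0.09) includes 0.

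The cytokine genes were at the limit of detection. IL6, a cytokine that signals through the shared receptor subunit gp130, had 16, 7, 4, 7 and 4 counts in labrum replicates 1 to 5, or 1.82, 0.619, 0.859, 0.329 and 0.335 CPM. In cartilage it had 1 count in replicate 2, 1 in replicate 5 and 0 in the other libraries. Every labrum library was above every cartilage library, although the lowest labrum values came from 4 and 7 counts. In cartilage replicates 1, 3 and 4 a count of 0 allows up to 0.266, 0.39 and 0.454 CPM. The limits of cartilage replicates 3 and 4 are above labrum replicates 4 and 5, so the separation of single libraries is not firm at this depth. The ratio of pooled IL6 counts was 20.8 (95% binomial interval 5.37 to 178).

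In the fit without the filter IL6 was higher in labrum by 4.23 on the log2 scale (SE 0.82, edgeR adjusted p = 0.000569, and 0.000168 to 0.0021 over its alternatives). The pooled ratio moved by about 1.5 times when a library that held many of the few counts was left out. It was 14.2 without labrum replicate 1 and 31.2 without cartilage replicate 2.

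TNF, the tumour necrosis factor gene, was counted in all 5 labrum libraries, with 11, 5, 1, 10 and 2 counts in replicates 1 to 5, or 1.25, 0.442, 0.215, 0.47 and 0.168 CPM. In cartilage it had 2 counts in replicate 3 (0.26 CPM) and 0 elsewhere. That one cartilage library lay above labrum replicates 3 and 5, so the groups overlapped. The ratio of pooled counts was 15.9 (95% binomial interval 4.01 to 137). It was 10.4 without cartilage replicate 5, and at least 9.29 without cartilage replicate 3. The fit without the filter gave a log2 fold change of 3.55 (SE 0.99, edgeR adjusted p = 0.00808, and 0.0024 to 0.0237 over its alternatives).

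The interleukin 1 genes were the lowest in counts. IL1B, which is released after cleavage of its precursor by caspase-1, had 9, 5, 0, 1 and 3 counts in labrum replicates 1 to 5, or 1.02, 0.442, 0, 0.047 and 0.251 CPM. Cartilage replicate 1 had 1 IL1B count (0.0886 CPM) and the other cartilage libraries had 0, so the groups overlapped. The ratio of pooled counts was 19.7, with a wide 95% binomial interval of 3.11 to 821. It was 11.6 without labrum replicate 1, 12.9 without cartilage replicate 5 and 29.4 without labrum replicate 4, and at least 5.39 without cartilage replicate 1.

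IL1A, which is active without such cleavage, was counted in only 2 labrum libraries, with 10 counts in replicate 1 (1.14 CPM) and 6 in replicate 4 (0.282 CPM). It had 0 counts in the other 3 labrum libraries and in all 5 cartilage libraries. Pooled over the group, 0 counts in cartilage allow up to 0.0473 CPM. With that floor, and with the labrum counts taken without error, IL1A was at least 5.83-fold higher in labrum. The bound was 2.58 without labrum replicate 1 and 3.81 without cartilage replicate 5. In labrum replicate 3, the shallowest library, 0 counts allow up to 0.644 CPM, so an IL1A level below that is not excluded there.

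In the fit without the filter IL1B passed the test, with a log2 fold change of 3.76 (SE 1.15, edgeR adjusted p = 0.0141, and 0.00651 to 0.0452 over its alternatives). IL1A did not pass it, with 4.84 (SE 1.83, edgeR adjusted p = 0.055). Over its alternatives the adjusted p of IL1A was 0.035 to 0.126, and it passed with library totals alone (0.035), without labrum replicate 2 (0.0376) and without labrum replicate 5 (0.0355). In that fit 25.6% of the 17287 genes were higher in labrum and 24% were lower. Of the 9 genes 5 were higher, namely CCL2, CXCL8, IL6, TNF and IL1B, and 2 were lower, PTGS2 and NOS2.

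**Figure D4:**
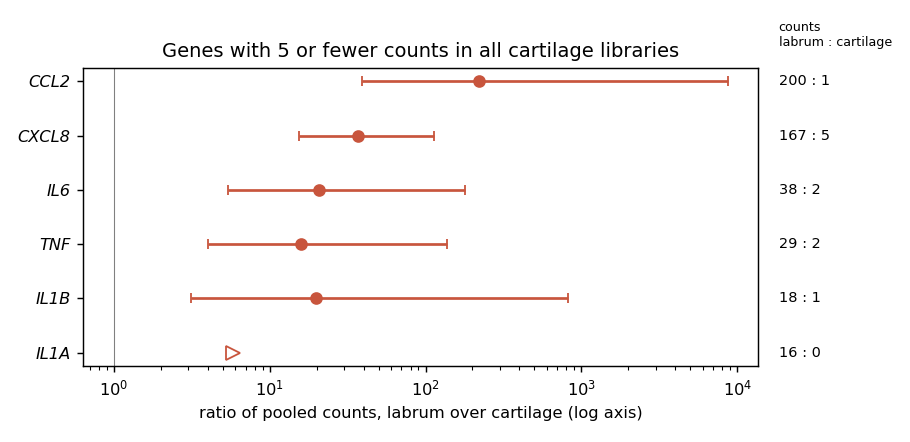
Ratio of pooled counts over scaled library sizes, labrum over cartilage, on a log axis, for the 6 genes with 5 or fewer counts in all cartilage libraries together; bars are exact 95% binomial intervals, the open triangle is the lower bound for IL1A, and the pooled counts stand at the right. That bound takes the labrum counts without error, so it is not the lower end of such an interval. The ratios run from a bound of 5.83 for IL1A to 219 for CCL2. The genes were taken for their few cartilage counts, a choice that favours ratios above 1. It did not use the labrum counts, so it does not fix the ratios.

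Without regard to a test, the measured values of 5 of the 9 genes showed no overlap between the tissues. CXCL8 and CCL2 were higher in every labrum library, and PTGS2 and NOS2 were lower in every labrum library. IL6 was also measured higher in every labrum library, but for labrum replicates 4 and 5 that difference is within what 0 counts in cartilage replicates 3 and 4 allow. Among the 17287 genes with at least 1 count, 19.7% showed such a separation with labrum above and 18.1% with labrum below.

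The make-up of the reads on the 9 genes is given as a description. PTGS2, NOS2 and CCL20 are the genes left when the 6 with 5 or fewer cartilage counts are set aside. A share near 100% in cartilage therefore restates that choice. The choice did not use the labrum counts and does not set the labrum share, but that share could hardly lie above the one in cartilage. PTGS2, NOS2 and CCL20 together took 99.2%, 99.9%, 99.8%, 100% and 99.97% of these reads in cartilage replicates 1 to 5. The same 3 genes took 62.4%, 67.3%, 73.8%, 59.2% and 90.3% in labrum replicates 1 to 5. Labrum replicate 5 had the highest share of its group, and replicate 4 the lowest. The means were 99.8% ± 0.34 in cartilage and 70.6% ± 12.3 in labrum (SD, n = 5 each). Longer transcripts give more reads, so these shares compare libraries and do not give the molar mix of the transcripts.

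**Figure D5:**
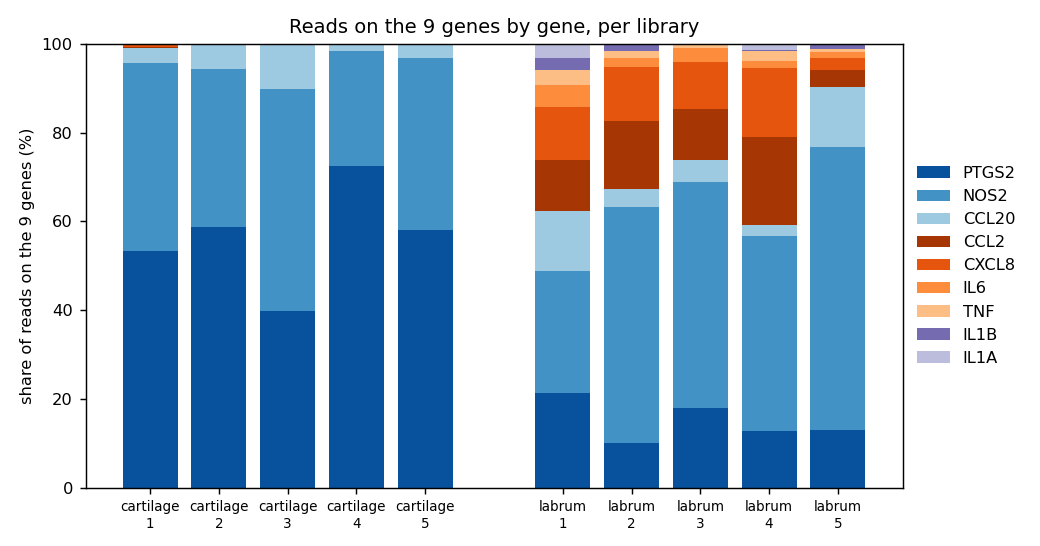
Share of the reads on the 9 genes that fell on each gene, in percent, for each of the 5 cartilage and 5 labrum libraries. PTGS2, NOS2 and CCL20 (blue shades) fill 99.2% to 100% in cartilage and 59.2% to 90.3% in labrum.

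Within the labrum, replicate 1 was the highest labrum library for 7 of the 9 genes, IL1A, IL1B, TNF, IL6, CXCL8, CCL20 and PTGS2. For IL1A, IL1B and TNF this rests on 10, 9 and 11 counts. The share of all genes that were highest in this library was not computed, so the 7 are a description only. Replicate 5 was the lowest for TNF, CXCL8 and CCL2 and the highest for NOS2. Replicate 4 was the lowest for IL6, CCL20, PTGS2 and NOS2, while its CCL2 and CXCL8 were close to those of replicate 2. The summed level of IL1A, IL1B, TNF, IL6, CXCL8 and CCL2 was 13.8, 9.29, 6.87, 8.55 and 2.35 CPM in labrum replicates 1 to 5.

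In cartilage the high libraries differed from gene to gene. Replicate 1 was the highest for IL1B, CXCL8 and CCL2, with 1, 5 and 1 counts, and the lowest for PTGS2. Replicate 3 was the highest for TNF, CCL20 and NOS2. Replicate 5 was the highest for PTGS2. The summed level of the same 6 genes was 0.62, 0.063, 0.26, 0 and 0.0454 CPM in cartilage replicates 1 to 5.

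All 4 tested genes varied more between libraries of one tissue than the trend over genes of like abundance. The biological coefficient of variation that edgeR fitted was 0.70 for CCL20, 0.46 for CCL2, 0.34 for PTGS2 and 0.33 for NOS2. That trend was at 0.33, 0.36, 0.18 and 0.19. Relative to that trend, 2.65% of tested genes were more variable than CCL20, 4.06% more than PTGS2, 4.93% more than NOS2 and 13.3% more than CCL2.

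Likeness of pattern was described within tissues, as the correlation of log2 CPM after the mean of each tissue was subtracted, over the 10 libraries and without a test. Such points share library and depth. CCL20 and NOS2 had the highest value among the tested genes of the group, r = 0.56, and CCL20 ranked 472nd among 12332 genes in likeness to NOS2. Cartilage replicate 3 was the highest cartilage library for both genes, and r without it was not computed. CCL20 and PTGS2 had r = 0.40, PTGS2 and NOS2 r = 0.14, and CCL2 had r = -0.34 with CCL20 and r = -0.33 with NOS2. For CCL2 and PTGS2 r was 0.019, and it was -0.133 with a prior count of 0.5. CCL2 had 1 count in all cartilage libraries together, so its cartilage values carry little information in these correlations. The 2 genes most like PTGS2 were ENSBTAG00000011623 (r = 0.96) and ENSBTAG00000008600 (r = 0.95), neither paired with a name. The first was higher in labrum by 0.69 on the log2 scale (edgeR adjusted p = 0.011), and the second had a log2 fold change of -1.24 (edgeR adjusted p = 0.000538). These 2 genes are too few to relate likeness between libraries to direction between tissues.

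Directions are relative to the scaling. With library totals in place of TMM the median log2 fold change of all tested genes moved from near 0 to 0.25. PTGS2 (-3.71) and NOS2 (-1.60) were still lower and CCL2 (7.22) still higher than that median.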

How the data were processed

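RNA-seq counts of 5 articular cartilage and 5 acetabular labrum libraries were used. Each deposited file gives whole-number counts of reads per gene; STAR and featureCounts are named in the submitters' processing notes, while the build, annotation, strand setting and tool versions are not given in the sources used. Reads of overlapping, antisense or near-identical genes may therefore be shared. Unnamed rows numbered 0.

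Counts were filtered with edgeR's default (a CPM equal to 10 counts at the median library size, in 5 libraries), scaled by TMM and fitted by quasi-likelihood on tissue alone with robust dispersions (edgeR 4.0.16, R 4.3.3). P-values were adjusted over all genes tested. The test was checked on data simulated with a single dispersion, with changes only in well-counted genes. That check does not cover genes with few counts, or a spread as wide as that of the genes tested here. Log2 CPM used a prior count of 2. Pooled ratios used summed counts over TMM-scaled sizes, with exact 95% binomial intervals and a floor of 3 counts per group, and bounds were rounded down. Alternatives were other scalings, no filter, DESeq2 1.42.0, limma 3.58.1 with voom, the replicate number as a block, and each library left out. All pairs of libraries within a tissue differed beyond sampling noise (chi-square per degree of freedom at least 13.1).

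The 9 genes and all gene lists were chosen with earlier results of these data known. All 9 were named, as the rule for named genes asked, with 2 genes most like PTGS2. Lists of receptors, other chemokines, prostaglandin and NF-kB genes, proteases and cell type markers could not be matched, since 0 of 37063 RefSeq entries held an Ensembl identifier. No sequence of these genes was used here.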

Additional observations from a re-analysis of the deposited data

Results flagged for a closer look

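In each tissue the 5 CPM values of a gene were examined for 1 value standing apart (a gap to its neighbour of more than 0.71 of the range). This was met by 7 of 17 groups. The limit is made for about 1 in 20 groups of normally distributed values. Low counts with many zeros are not such values, so the 7 cannot be read as an excess over chance. In cartilage, 4 of these rest on 5 or fewer counts where the other libraries had 0, so any count would stand apart: IL1B (0.0886 CPM), CXCL8 (0.443 CPM) and CCL2 (0.0886 CPM) in replicate 1, and TNF (0.26 CPM) in replicate 3. CCL20 in cartilage replicate 3 was at 15.7 CPM from 121 counts, and the next library was at 4.68 CPM. In labrum replicate 1, IL1A was at 1.14 CPM and TNF at 1.25 CPM, from 10 and 11 counts, with the next libraries at 0.282 and 0.47 CPM. No cause was tested.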

How the results depend on the processing

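Of 394 alternative values, 377 kept their side of the test's threshold or stayed within a range set for their kind. A further 12 moved beyond it, 5 passed the threshold and 0 were scored as reversed. Only log2 fold changes and pooled ratios were scored for reversal. Among the 12, the correlation of CCL2 and PTGS2 changed sign, from 0.019 to -0.133 with a prior count of 0.5. The range was 1.5 times for gene counts and the IL1A bound, 1 SD for mean levels and shares, 0.1 for correlations and the 95% binomial interval for other pooled ratios. These ranges are wide, and 17 values within them (9 mean levels and 8 pooled ratios) still moved by over 1.5 times, each when 1 library was left out. The fits without a filter under further alternatives, and the share without CCL20, were added after seeing the data. Without the filter 5 of the 9 genes were higher in labrum, against 1 with it, because more genes were tested. When single libraries were left out, 0 to 2 genes of the group were higher, since CXCL8 entered the test in some of these fits and CCL2 left it without labrum replicate 4. From 2 to 3 were lower, the third being CCL20 without labrum replicate 1 (edgeR adjusted p = 0.0373). Over all genes 3577 to 3964 were higher and 3554 to 3882 lower. Log2 fold changes ranged from 6.56 to 8.36 for CCL2, -4.35 to -3.82 for PTGS2, -2.0 to -1.58 for NOS2 and -1.91 to -0.65 for CCL20, which also passed the test with limma-voom (-1.58). Pooled ratios ranged from 2.58 to 7.3497 for IL1A (bounds), 5.39 to 29.4 for IL1B, 9.29 to 18.6 for TNF, 14.2 to 31.2 for IL6, 23.9 to 50.08 for CXCL8 and 59.9 to 260.5 for CCL2, where the lowest for IL1B, TNF and CCL2 and the highest for CXCL8 are bounds. The share of PTGS2, NOS2 and CCL20 was 99.7% to 99.9% in cartilage and 65.7% to 73.5% in labrum, and without CCL20 it was 95% in cartilage, by construction. With library totals alone 5154 genes were higher and 2588 lower, against 3877 and 3861 with TMM; the cause was not tested. Lists that could not be matched were not run.

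Same-numbered libraries of the 2 tissues deviated together with r of 0.0913 to 0.253, and their own number was the best match for 8 of 10 libraries, a hint of pairing from the data. The labels do not say that a number marks one animal, and the limit set for taking numbers as pairs (r over 0.1 in every pair) was met by 4 of 5, replicate 3 being under it, so the fit without the block was kept. With the replicate block, 3842 genes were higher and 3766 lower, and 1 and 2 of the 9 genes, with log2 fold changes of 6.83 for CCL2, -3.99 for PTGS2, -1.74 for NOS2 and -1.22 for CCL20 (edgeR adjusted p = 0.1).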
